A study of Mus musculus with 12 samples.

Results

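The genes described here encode the proteins of the cytosolic ribosome. They are the 48 genes whose symbol in the array's annotation is Rpl or Rps followed by a number, or is Rplp0, Rplp1, Rplp2 or Rpsa, and which have at least 1 probe set that names no other gene. Rps6k kinases and names ending in -ps were left out. The 48 are among 12394 genes named by such probe sets, and they hold 100 probe sets. A further 102 probe sets name a ribosomal protein gene together with a different gene and were not used, so members such as Rplp1, Rpl3 and Rpl10 are not measured here. Of the 48 genes, 47 passed a filter on low signals, among 9333 genes tested. They are 25 large and 22 small subunit genes. The member that did not pass was Rpl39l, a relative of Rpl39, with normalized signals between 1.4 and 49.6 on the 12 arrays.

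The ribosome has a large (60S) and a small (40S) subunit, in which Rpl and Rps proteins are bound to ribosomal RNA. Mammalian ribosomal protein mRNAs are abundant in every tissue, and most begin with a C followed by a run of pyrimidines, the 5′ terminal oligopyrimidine (TOP) start, through which mTOR signalling controls their translation. Members such as Rplp0 and Rpl13a serve as reference genes in many expression assays.

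The study set high tidal volume ventilation against spontaneous breathing in mouse lung, in animals of the CD-1/ICR strain that carry or lack Nrf2, the antioxidant transcription factor encoded by Nfe2l2. The 4 groups, of 3 arrays each, were wild type (Nrf2+/+) breathing spontaneously (SpV), wild type ventilated at 30 ml/kg (HVT), knockout (Nrf2-/-) SpV and knockout HVT, each for 2 h. Wild-type SpV array 1 is labelled whole lung and the others left lobe. The ages, the deleted part of Nfe2l2 and whether replicates are separate animals are not given in the sources used here, so a p-value measures only how far these arrays scatter, part of which may be technical.

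Array quality was uneven. The trimmed mean of the deposited signals was 73.9 on knockout SpV array 1 and 182 to 469 on the other 11. The beta-actin control's 3′ signal divided by its 5′ signal, which rises as RNA degrades, was 8.76 on that array and 1.39 to 3.10 elsewhere. Nfe2l2 was at 2144.3 or more on every wild-type array and at 61.3 or less on every knockout array. The 8 lung epithelial markers were all measured, with a summed signal of 90055.6 to 122445.7. Single markers differed in how far they varied, Scgb1a1 between 22099.6 and 26277 and Ager between 1372.1 and 11564.6. In such whole-tissue RNA, fewer cells of a type and less RNA per cell cannot be told apart.

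Annotated start sites from RefSeq (GRCm38.p6) were matched for 42 of the 48 genes, in 50 windows, and are shown because the TOP start is the feature these mRNAs are known for. A C at the annotated first base that opens a run of at least 5 pyrimidines was found for 8 of the 42 genes (19%), against 3.01% of the 27025 genes in the table. Each line gives 30 bases, 5′ to 3′, from 10 bases before the start, and capitals mark the pyrimidine run from the first transcribed base.
Rpl14 (chr9:120571507-120571536, plus strand): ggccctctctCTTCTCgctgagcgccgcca
Rpl35 (chr2:39005112-39005141, minus strand): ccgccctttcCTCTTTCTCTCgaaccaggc
Rpl38 (chr11:114668570-114668599, plus strand): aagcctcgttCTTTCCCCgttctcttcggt
Rplp2 (chr7:141447641-141447670, plus strand): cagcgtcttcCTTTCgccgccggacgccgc
Rps10 (chr17:27635225-27635254, minus strand): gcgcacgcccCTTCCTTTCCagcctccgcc
Rps18 (chr17:33955646-33955675, minus strand): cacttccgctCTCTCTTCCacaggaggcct
Rps27 (chr3:90213629-90213658, minus strand): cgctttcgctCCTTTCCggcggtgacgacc
Rps6 (chr4:86857348-86857377, minus strand): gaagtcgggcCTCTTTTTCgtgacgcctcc

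For the 2 members called below, the windows show other starts. The Rpl27a window opens with a run of 16 pyrimidines whose first base is T, and the Rps25 window has no run at the annotated base, so it is in lower case throughout. A RefSeq start can lie some bases from the site used in a tissue, and no run here says only that these letters are not at this base.
Rpl27a (chr7:109519185-109519214, plus strand): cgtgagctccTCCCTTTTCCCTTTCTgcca
Rps25 (chr9:44407704-44407733, plus strand): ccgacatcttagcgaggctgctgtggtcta

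The letters CCGGAAG, a core recognised by ETS factors, or CTTCCGG on the other strand, were in 21 of the 50 member windows of 300 bases (250 before to 50 after the start), which is 42%, against 8.86% of all 32851 windows. TATAAA, or TTTATA on the other strand, was in 6 of the 50 (12%) and in 13.6% of all. Neither motif contains the other. A match describes the letters and is not a binding site. The 4 windows below, again from 10 bases before the start, hold CCGGAAG on the gene's strand, in capitals.
Rpl11 (chr4:136053374-136053403, minus strand): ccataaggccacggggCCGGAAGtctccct
Rpl6 (chr5:121204491-121204520, plus strand): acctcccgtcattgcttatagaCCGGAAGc
Rps27l (chr9:66946076-66946105, plus strand): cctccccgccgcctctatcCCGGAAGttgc
Rps3a1 (chr3:86142649-86142678, minus strand): gCCGGAAGggcgaaagagcaagggtcacgt

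Ribosomal protein mRNAs were among the brightest signals in the lung and varied little. The mean normalized signal was 4000 or more for 32 of the 47 members (68.1%), against 3.89% of all genes tested. In these 32 the highest of the 12 arrays was 1.21 to 1.9 times the lowest, with a median of 1.36. The other 15 members had a median of 2.38, from 1.35 to 78.4. The median standard deviation within groups was 0.138 log2 units for the members and 0.285 for all genes tested. Among genes with a mean of 4000 or more it was 0.112 for members and 0.203 for all. With the arrays scaled but not quantile normalized, the median ratio of the 32 bright members was 2.00, and 1.48 without knockout SpV array 1. On each array 9 to 14 members were among the 100 brightest probe sets, and the highest deposited signals were 12045.6 to 14271.7.

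**Figure D1:**
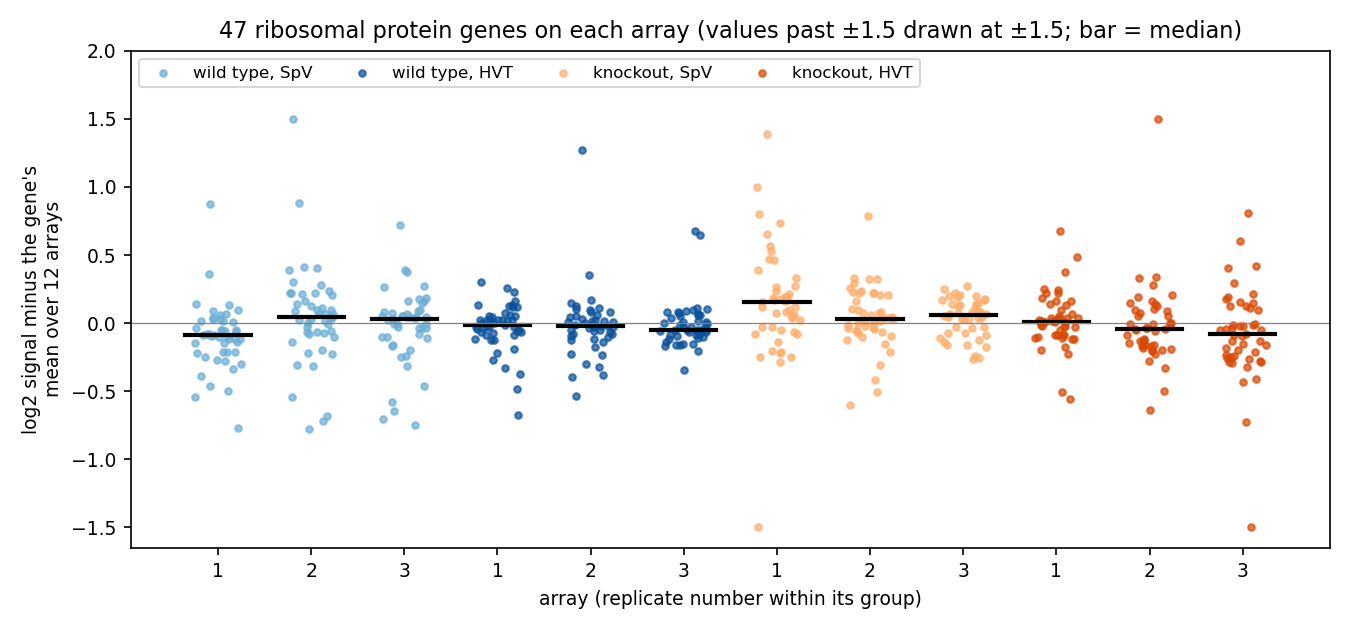
Each point is 1 of the 47 ribosomal protein genes on 1 of the 12 arrays, as log2 signal minus the gene's mean over all arrays, with arrays along the horizontal axis coloured by group and a bar at the median. The medians lie between -0.09 and 0.16, and knockout SpV array 1 has the highest.

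As the plot of deviations by array shows, the median member lay 0.16 above its own mean on knockout SpV array 1, the dim array with the actin ratio of 8.76, and -0.09 to 0.06 from it on the other 11. The part of RNA quality in that value was not tested. The subunits had like values on that array, with medians of 0.17 for large and 0.14 for small subunit genes. Single members followed each other loosely. Over the 12 arrays, which share 1 normalization, the 1081 pairs of members had a median correlation of 0.13, and 60.8% of pairs were above 0.

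In wild-type lung, no ribosomal protein gene passed the test for ventilation. The median log2 difference, HVT minus SpV, was -0.01 over the 47 members and -0.04 over all genes, with 23 members higher and 24 lower. That split depends on the scaling, with 33 higher and 14 lower after scaling to equal medians. With limma, 0 members had an adjusted p under 0.05, against 0.075% of all genes, and 1 had an unadjusted p under 0.05, against 7.97%. The 3 HVT arrays all lay above the 3 SpV arrays for 4 members (7.9% of all genes) and all below for 1 (9.15%).

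The highest values in wild type were those of Rps25, a 40S protein needed by some viral internal ribosome entry sites, at 0.65 ± 0.18 (adjusted p = 0.328), of Rpl27a, a 60S protein, at 0.51 ± 0.26, and of Rpl12, a 60S protein at the base of the stalk, at 0.31 ± 0.19. Each error is a limma standard error for groups of 3 arrays, with the gene's spread estimated over all 12 arrays. The lowest were the 60S proteins Rpl14, at -0.36 ± 0.33, and Rpl8, at -0.36 ± 0.18, and the Rps4x relative Rps4l, at -0.34 ± 0.75. None of these 6 passed. Rpl14 was a weak signal in all comparisons, at 59.9 to 215.7 over the 12 arrays. Before quantile normalization it reached the filter signal of 100 on 6 arrays.

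The reference genes were read in the same way. Rplp0, which carries the stalk that recruits elongation factors, had 3842.9, 4465.7 and 4951.7 on the wild-type SpV arrays and 4863, 4674.5 and 4187.4 on the HVT arrays. The groups overlapped, and the difference was 0.05 (95% interval -0.23 to 0.34). The same difference was 0.01 (95% interval -0.18 to 0.21) for Rpl13a and -0.01 (95% interval -0.23 to 0.21) for Rplp2, a stalk protein. Between genotypes, averaged over breathing modes, Rplp0 had 0.12 (95% interval -0.08 to 0.32), Rpl13a 0.04 (95% interval -0.09 to 0.18) and Rplp2 -0.10 (95% interval -0.25 to 0.06). With ventilation in the knockout, Rplp0 had 0.00 (95% interval -0.29 to 0.28), and Rpl13a -0.14 (95% interval -0.33 to 0.06), with all HVT arrays below all SpV arrays. Further probe sets of Rpl13a gave other values there, -0.48 ± 0.13 for 1417608_a_at, -1.10 ± 0.25 for 1433928_a_at and 0.07 ± 0.20 for 1455001_x_at, and between genotypes they gave -0.18, 0.02 and 0.19.

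In knockout lung, 0 of the 47 members passed the test for ventilation, and 0% of all genes did. Unadjusted, 8 members had a p under 0.05, against 10.6% of all genes. The median was -0.12 (0.00 for all genes) with 33 lower and 14 higher, but -0.02 with 24 lower under scaling alone, -0.05 with 25 lower under equal medians, and 0.09 on the 20 members with a plain _at probe set. The HVT arrays all lay below the SpV arrays for 14 members (7.53% of all genes), which became 5 under scaling alone and 6 under equal medians. They lay above for 4 (6.76%). Without knockout SpV array 1, 6.49% of all genes were called and still 0 members, and with 2 SpV arrays left the counts were 21 below and 10 above. For these alternatives the share of all genes without overlap was not counted, and groups with fewer arrays separate more easily. The changed counts are therefore not read as a result about the members.

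Rpl22, a 60S protein that also acts in T cell development, had the lowest value with all arrays in. It had 3662.7, 2524.3 and 2146.4 on the knockout SpV arrays and 1539.3, 1548.2 and 2111.5 on the knockout HVT arrays, a difference of -0.66 ± 0.20 (adjusted p = 0.322). The HVT arrays were all lower, the nearest pair being 2146.4 and 2111.5. A second probe set of Rpl22 gave -0.09. The 60S proteins Rpl19 and Rpl6 had -0.41 ± 0.12 (adjusted p = 0.287) and -0.38 ± 0.11 (adjusted p = 0.287), Rpl14 -0.63 ± 0.33 and Rps4l -0.50 ± 0.75. High values were those of Rpl39, near the exit of the peptide tunnel, at 0.32 ± 0.31, and Rps25, at 0.31 ± 0.18, beside Rpl3l, at 1.32, which rests on 1 array described below. These values and their order depend on knockout SpV array 1. Without it Rps4l had -1.58 and was below Rpl22, at -0.44, and Rpl14, at -0.44, while Rpl39 had 0.72 and Rps25 0.13, and none of these was called.

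Markers of blood cells were read beside this comparison. The summed signal of the 6 neutrophil markers, all measured, was 5269.5 to 20842 in knockout SpV and 1963.9 to 2817.9 in knockout HVT, without overlap. Of the T cell markers, 3 of 5 were tested and summed to 431 to 686.2 and 259.4 to 427.2. For B cells, 4 of 5 summed to 907.6 to 1667.8 and 867.4 to 1217.6, and for red cells 2 of 5 summed to 1053.6 to 3426.2 and 914.4 to 983.9. No marker of these 4 lists passed the test here, and their part in the members' values was not tested.

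Between genotypes at rest, no member passed, and most lay slightly higher in the knockout. The median, knockout minus wild type, was 0.09 (-0.01 for all genes) with 35 higher and 12 lower. It was 0.24 with 43 higher under scaling alone and 0.23 with 42 higher under equal medians, but -0.27 with 44 lower on the deposited values, where all genes had -0.47. Called were 0 members and 0.332% of all genes, and unadjusted 6 members and 13.7%. The groups did not overlap for 10 members higher (8.91% of all genes) and 1 lower (9.5%), the latter being Rps7, a 40S protein, at -0.15 ± 0.11. The count of members higher was 5 under scaling alone, 4 under equal medians and 0 on the deposited values, and 18 without wild-type SpV array 2. The matching share of all genes was not counted, and groups with fewer arrays separate more easily, so these counts show only that the number is unstable. Rps6, the 40S protein phosphorylated downstream of mTOR, had 0.49 ± 0.17 (adjusted p = 0.253). Without knockout SpV array 1, the median was 0.05 (-0.03 for all genes) with 30 higher and 17 lower. In that fit Rps25 was called, against 1.9% of all genes.

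Under ventilation the genotype comparison gave a median of -0.03 with 21 higher and 26 lower, and its sign depends on the scaling. It was 0.22 with 41 higher under scaling alone, 0.15 with 33 higher under equal medians, and -0.65 on the deposited values, where all genes had -0.77. Called were 0 members and 0.739% of all genes, and unadjusted 4 members and 12.8%. The groups did not overlap for 7 members higher (12.4%) and 6 lower (12.9%). These counts were 19 and 3 under scaling alone, 13 and 3 under equal medians, and 0 and 36 on the deposited values. Under these scalings the share of all genes without overlap was not counted, so the changed counts are not read as a result about the members. Rpl39 had 0.37 ± 0.31 and Rpl22 -0.38 ± 0.20. Without knockout SpV array 1, Rpl27a (0.67) and Rps4l (-1.92) were called, against 5.32% of all genes. The knockout HVT arrays were dimmer than the wild-type HVT arrays, with trimmed means of 182 to 247 against 279 to 439, and had actin ratios of 2.21 to 3.10 against 1.53 to 1.99. The part of these in the members' values was not tested.

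**Figure D2:**
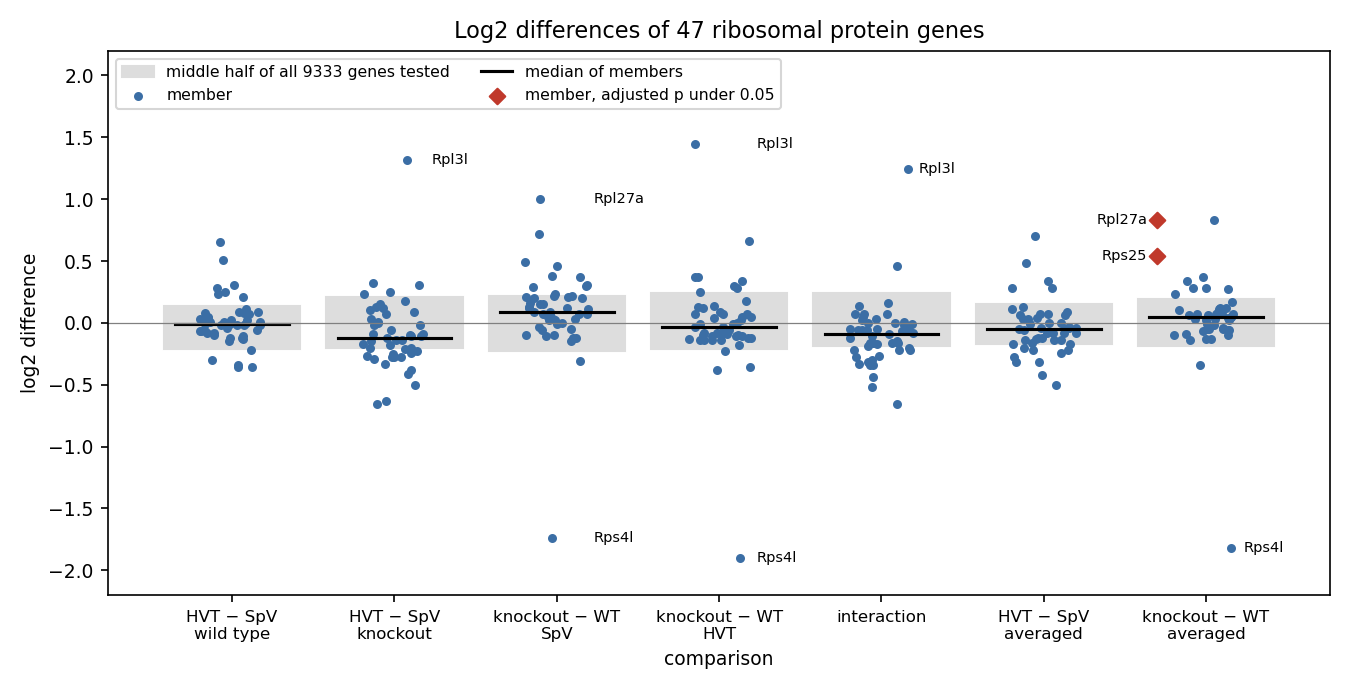
Each point is the log2 difference of a ribosomal protein gene (vertical axis) in a comparison (horizontal axis), black bars are member medians, and grey boxes run from the lower to the upper quartile of all 9333 genes tested. The diamonds, Rpl27a and Rps25 in the averaged genotype comparison, are the members called.

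**Figure D3:**
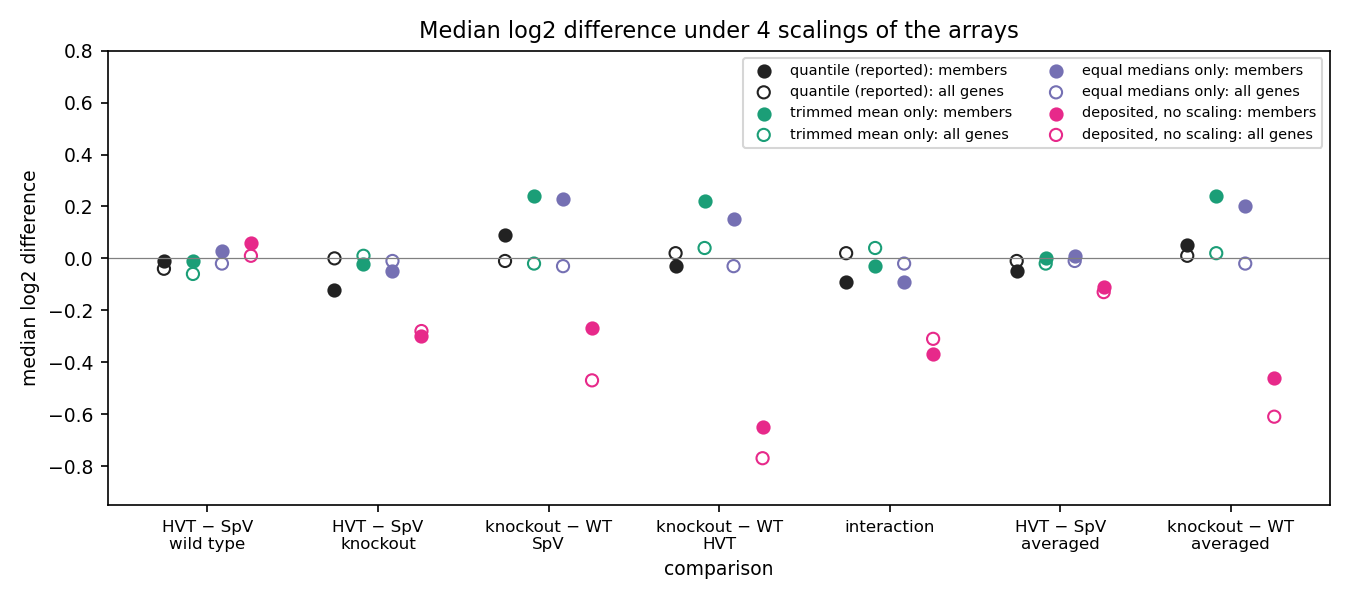
Median log2 difference (vertical axis) in each comparison (horizontal axis) under 4 scalings of the arrays, filled circles for the members and open circles for all genes. In the averaged genotype comparison the members' median is 0.05 as reported, 0.24 and 0.20 under the scalings without quantile normalization, and -0.46 on the deposited values.

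No member's response to ventilation was shown to differ between genotypes. The interaction had a median of -0.09 (0.02 for all genes) with 35 members below 0, and -0.03 with 27 below 0 under scaling alone. Called were 0 members and 0% of all genes, and unadjusted 2 members and 4.89%. The standard error of a single member's interaction had a median of 0.18, which does not measure the scatter of the median over members. The lowest values were those of Rpl22, at -0.66 ± 0.29, Rps27, at -0.52 ± 0.65, and Rps6, at -0.44 ± 0.25. Rps27 rests on knockout SpV array 1, where it is at 635.1, and had 0.09 without it, and Rpl22 had -0.44. The highest were those of Rpl7l1, at 0.46 ± 0.28, and Rpl7, at 0.16 ± 0.14, beside Rpl3l, at 1.24, which rests on 1 array described below and had 0.33 without it. Without knockout SpV array 1 the count stayed at 0 members, against 0.892% of all genes, and it was also 0 for ventilation in wild type, against 0.49%.

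Averaged over genotypes, ventilation gave a median of -0.05 with 30 lower and 17 higher, and 0.01 with 24 higher under equal medians. Called were 0 members and 0.107% of all genes, and unadjusted 8 members and 13.3%. The highest values were those of Rpl3l, at 0.70 (0.25 without knockout HVT array 2), Rps25, at 0.48 ± 0.13 (adjusted p = 0.14), and Rpl27a, at 0.34 ± 0.19. The lowest were Rpl14, at -0.50 ± 0.24, Rps4l, at -0.42 ± 0.53 (-0.96 without knockout SpV array 1), Rpl22, at -0.32 ± 0.14, and Rpl8, at -0.32 ± 0.13 (adjusted p = 0.29). Without knockout SpV array 1, Rpl27a (0.52) and Rpl8 (-0.40) were called, against 7.03% of all genes.

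Averaged over breathing modes, Rpl27a and Rps25 were higher in the knockout, the 2 members called. Of all genes, 3.73% were called, 1.6% higher in the knockout, so the members' count is near the background. Unadjusted, 7 members had a p under 0.05, against 21.3% of all genes. The members' median was 0.05 with 30 higher and 17 lower, and -0.46 on the deposited values, where all genes had -0.61. Without knockout SpV array 1, 3 members (Rpl27a, Rps25 and Rps4l) and 6.83% of all genes were called.

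Rpl27a had normalized signals of 181.8, 181.5 and 230 in wild-type SpV, 296.3, 243.9 and 325.7 in wild-type HVT, 658.8, 308.5 and 331.8 in knockout SpV and 421.9, 409.1 and 575.9 in knockout HVT. Within each breathing mode every knockout array was above every wild-type array, and knockout SpV array 1 was the highest of all. The averaged difference was 0.83 ± 0.19 (adjusted p = 0.03), with 1.0 ± 0.26 at rest and 0.66 ± 0.26 under ventilation. It was called in 4 of the 12 fits that left out 1 array, with values of 0.67 to 0.92 and adjusted p of 0.0119 to 0.0899. On the deposited values it was 0.16 and not called.

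Rps25 had 312.7, 267.2 and 295.8 in wild-type SpV, 505.3, 423.2 and 474.7 in wild-type HVT, 376.3, 567.1 and 546 in knockout SpV and 633.6, 516.3 and 689.4 in knockout HVT. The wild-type SpV arrays were lowest, below every other array, and wild-type HVT overlapped with knockout SpV. The averaged genotype difference was 0.54 ± 0.13 (adjusted p = 0.0397), with 0.72 ± 0.18 at rest and 0.37 ± 0.18 under ventilation. It was called in 2 of the 12 fits that left out 1 array, with values of 0.49 to 0.64 and adjusted p of 0.0055 to 0.108. It was not called under equal medians (adjusted p = 0.0686), and on the deposited values it was -0.10. Both genes are read by a single plain _at probe set each that passed the filter, 1437729_at for Rpl27a and 1430978_at for Rps25. Their mean signals, 347.1 and 467.3, were far below the 4000 reached by 32 of the 47 members. Whether these probe sets read the main mRNA of each gene was not tested.

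Tissue markers differed in the same comparison. Of 8 endothelial markers, all measured, 4 were called lower in the knockout, and the summed signal was 18762.4 to 24977.9 and 14549.5 to 22167.7 in wild-type SpV and HVT against 8386.5 to 16811.5 and 7828.4 to 9626.9 in the knockout. Of 8 heart muscle markers, 7 were called higher, and of 5 smooth muscle markers 3, with smooth muscle sums of 8785.5 to 9509.7 and 9600.6 to 13234.7 against 12127.4 to 15547.9 and 13929.4 to 16036.8. Of 8 lung epithelial markers, 5 were lower and 3 higher in the knockout, and 2 of the lower ones were called. The part of tissue make-up in the Rpl27a and Rps25 values was not tested.

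**Figure D4:**
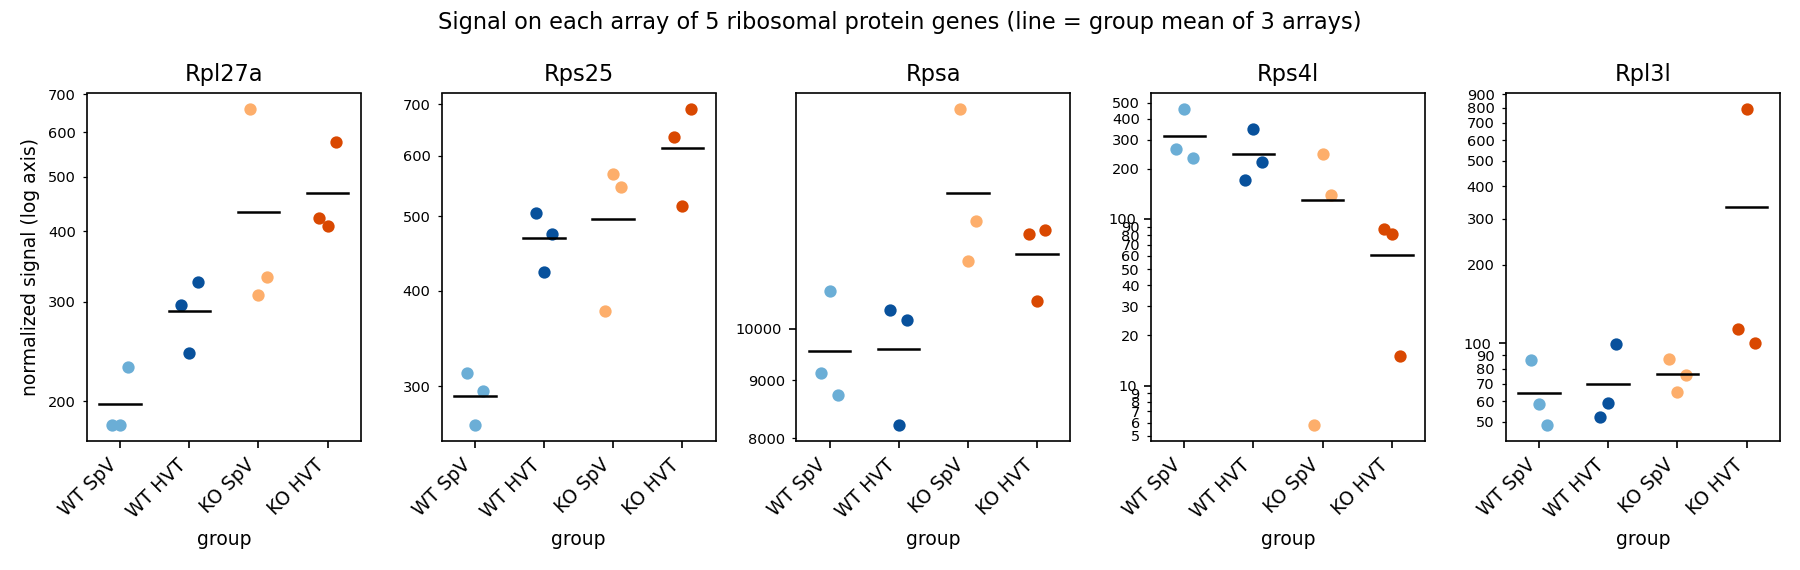
Normalized signal (vertical log axis) of 5 ribosomal protein genes on each array, by group (horizontal axis), with a line at the mean of 3 arrays. Rpl27a and Rps25 are lowest in wild-type SpV, and Rpl3l is high on 1 knockout HVT array, at 788.4.

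Other members lay near the threshold. Rpsa, the 40S protein also known as the laminin receptor, had 9127.7, 10800.9 and 8727.2 in wild-type SpV and 15637.9, 11470.3 and 12450.7 in knockout SpV, without overlap, and 10387.8, 8217.3 and 10179.6 and 12126.4, 10586.2 and 12223.2 under ventilation, again without overlap. Its averaged difference was 0.37 ± 0.10 (adjusted p = 0.0618), and it was called without knockout SpV array 2. Rps19, a 40S protein mutated in Diamond-Blackfan anaemia, had 5011.6 to 7090 in wild type and 4243.6 to 5631.4 in the knockout. These ranges overlapped, as did the groups at rest. Under ventilation the knockout arrays, at 4243.6 to 4733.6, were all below the wild-type arrays, at 5011.6 to 6838.3. The averaged difference of Rps19 was -0.34 ± 0.11 (adjusted p = 0.109). Rpl38, a 60S protein known for its role in Hox mRNA translation, had -0.14 ± 0.08 (adjusted p = 0.327).

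Among the relatives of core ribosomal proteins, Rps4l had the lowest averaged genotype difference of the members. Rps4l had 262, 455.6 and 233 in wild-type SpV, 170.5, 349.3 and 221 in wild-type HVT, 5.8, 244.4 and 139 in knockout SpV and 86.6, 81.1 and 15.1 in knockout HVT. Under ventilation the knockout arrays were all lower, and at rest knockout SpV array 2, at 244.4, overlapped with wild type. The averaged difference was -1.82 ± 0.53 (adjusted p = 0.0759). The filter signal was reached on all 6 wild-type arrays, on 2 of knockout SpV and on 0 of knockout HVT. As the filter asks for 3 arrays, Rps4l entered the tests through the wild-type groups, where it is high. Its differences, adjusted p and calls, here and in the other paragraphs, are given as a description. The difference was called, at -1.30, without knockout SpV array 1, the array at 5.8, and at -2.17 without knockout SpV array 2. Adding the actin ratio to the model also gave a call, at -1.25. The lowest signals, 5.8 and 15.1, were on the dimmest arrays, with trimmed means of 73.9 and 182. Rps4x itself had 0.07 (95% interval -0.09 to 0.23).

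Rpl3l, the heart and skeletal muscle relative of Rpl3, had 48.6 to 99.1 in wild type, 65.2 to 86.9 in knockout SpV and 113, 788.4 and 99.9 in knockout HVT. A single array, knockout HVT array 2, stood apart, and the other 2 of its group were just above the rest. Before quantile normalization it reached the filter signal of 100 on 4 arrays, all 3 of knockout HVT and knockout SpV array 1, so it entered the tests through the group where it is high, and its differences are given as a description. The difference from wild type under ventilation was 1.45, and 0.55 without knockout HVT array 2. The ventilation difference in the knockout was 1.32, and 0.42 without it, and the averaged genotype difference 0.83 and 0.38. The summed signal of the 8 heart muscle markers was 26754.2 to 37056.9 and 25702.6 to 40741.1 in wild-type SpV and HVT, 43339.1 to 53461.6 in knockout SpV and 52852.4 to 63152.3 in knockout HVT, highest on that same array. Nppa, the atrial natriuretic peptide gene, was 6234.9 there and at most 3830.3 on the others. Myh6, Tnnt2, Actc1 and Ryr2 were also highest on that array. Myl7, Tnni3 and Myl4 were not, and Myl4 had 9873.8 there and 11058.2 on knockout HVT array 1. The part of heart tissue in the Rpl3l value was not tested.

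The other relatives had small differences between genotypes. Rps27l, an Rps27 relative induced by p53, had 0.09 (95% interval -0.12 to 0.30) and Rps27 0.12 ± 0.32. Rpl22l1, which can take the place of Rpl22, had 0.03 (95% interval -0.24 to 0.31), and Rpl22 -0.05 ± 0.14. Rpl7l1 had 0.11 (95% interval -0.19 to 0.41), and Rpl7 0.05 ± 0.07.

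Probe sets of the same gene often gave different values. For 19 members, 42 further probe sets passed the filter. In the averaged genotype comparison 28 of the 42 had the same sign as the brightest probe set, with a median gap of 0.07 and 1 gap of 0.5 or more, in Rpl37a, a 60S protein, where 1416218_x_at gave -1.11 and the brightest -0.02. For ventilation in the knockout it was 22 of 42, with a median gap of 0.18 and 8 gaps of 0.5 or more. Rps10, a 40S protein, shows the largest gap for ventilation in wild type. Its probe set 1439374_x_at had 1430.6, 1129.2 and 2069.9 on the SpV and 4293.8, 3481.6 and 2131.3 on the HVT arrays, a difference of 1.08, and the brightest gave -0.02. Of the 47 probe sets used, 14 end in x_at, the suffix for sets whose probes can bind unrelated or related transcripts.

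**Figure D5:**
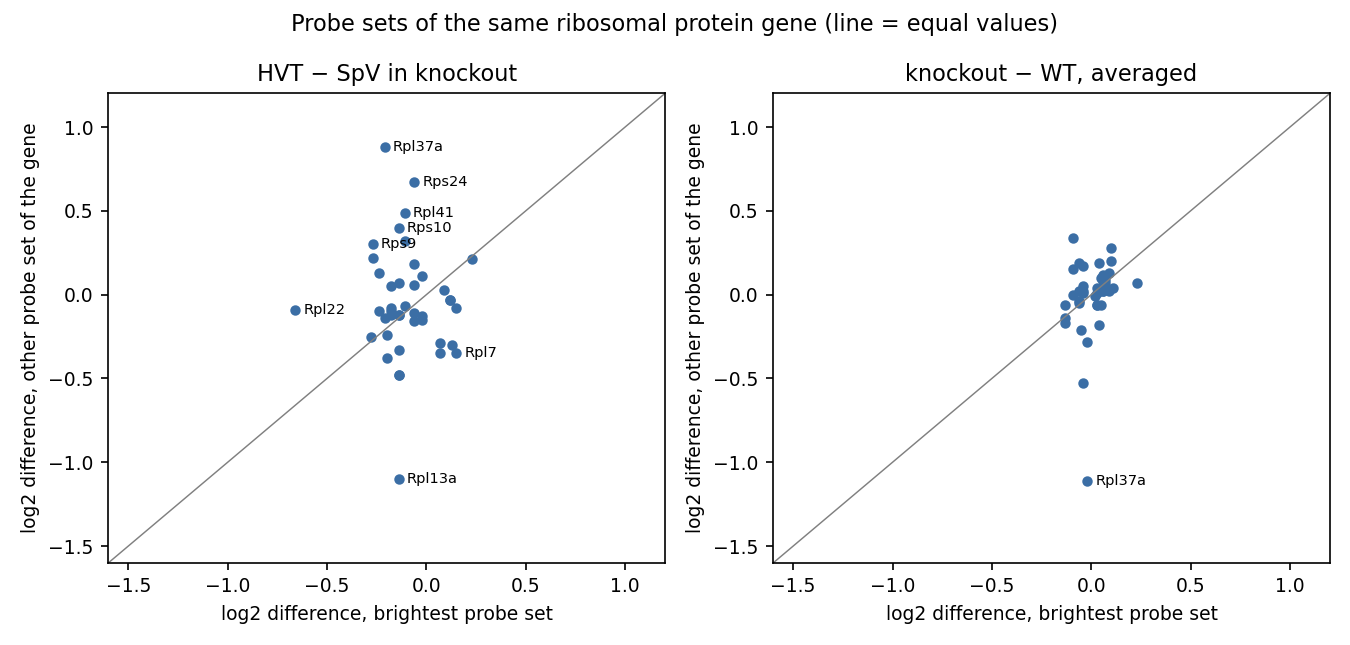
Log2 difference of a further probe set (vertical axis) against that of the brightest probe set of the same gene (horizontal axis), for ventilation in the knockout and for the averaged genotype comparison. The line marks equal values, and names mark gaps of 0.5 or more, 8 in the first panel and 1 in the second.

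Genes that work with the ribosome were read from 4 lists, which had 0 calls. As 0% to 0.739% of all genes were called in 6 of the 7 comparisons and 3.73% in the averaged genotype comparison, that count says little about the lists. Of 19 translation factors and other genes with TOP mRNAs, 17 were tested. Their median between genotypes was 0.07 with 13 higher, and the smallest p belonged to the chaperonin subunit Cct4, at 0.40 ± 0.11 (adjusted p = 0.0633), and the elongation factor subunit Eef1d, at 0.36 ± 0.10 (adjusted p = 0.066). Of 56 ribosome biogenesis genes, 49 were tested, with a median of 0.10 and 39 higher. Nop56, a core protein of box C/D small nucleolar particles, had 0.54 ± 0.16 (adjusted p = 0.0722), and Polr1c, a subunit of RNA polymerases I and III, -0.35 ± 0.12 (adjusted p = 0.108). With ventilation averaged over genotypes, Nmd3, the export adaptor of the 60S subunit, had 0.42 ± 0.12 (adjusted p = 0.155). The 74 mitochondrial ribosomal protein genes, which serve a separate ribosome, had a median of 0.09 between genotypes, with Mrpl24 at 0.31 ± 0.10 (adjusted p = 0.102) and Mrpl16 at 0.34 ± 0.13 (adjusted p = 0.148). Fau, the precursor of a 40S protein and the 1 tested gene of 4 ribosomal proteins listed under other names, had 0.10 ± 0.09 (adjusted p = 0.584). All genes tested had a median of 0.01 in that comparison.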

How the data were processed

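RNA from 12 mouse lung samples was measured on Affymetrix 430A arrays. The authors deposited intensity values per probe set, on a linear scale, made with GCOS 1.4 per the submitters' processing notes. Scaling to an average of 500 is described, but the deposited values have trimmed means of 73.9 to 469, so each array was scaled to a 2% trimmed mean of 500 and quantile normalized. Control probe sets (64) were left out. A probe set was kept at a scaled signal of 100 or more on at least 3 arrays, 16 was added before log2, and the brightest probe set stood for its gene. The log2(signal + 16) scale understates changes of weak genes. Of 20393 probe sets naming 1 gene (691 name several), 20364 matched RefSeq (GRCm38.p6), and 0 symbols changed. With limma 3.58.1 in R 4.3.3 (lmFit, eBayes with trend), the 4 group means were estimated together, leaving 8 residual and 4.44 prior degrees of freedom. Each of the 7 contrasts was two-sided and adjusted by Benjamini-Hochberg over 9333 genes, with 0.05 as the threshold. The number of arrays limits the precision. The code was tested on simulated data.

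The members and lists were chosen with earlier results of these data known, so no list has a test of its own. Named members are those called, the 3 highest and 3 lowest per comparison, Rplp0, Rplp2, Rpsa, Rpl13a and the relatives of core proteins with their partners. Rpl19, Rpl6, Rpl37a and Rps10 were chosen after their values were seen. From the related lists the genes with the smallest p were named, in the comparisons described. Alternatives changed the scaling, pseudocount, filter, choice of probe set, bright probe sets, a replicate block, an actin covariate and each array in turn.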

Additional observations from a re-analysis of the deposited data

How the results depend on the processing

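The 2 calls of the averaged genotype comparison, against 3.73% of all genes, became 1 under equal medians (Rpl27a), against 3.56%. They became 1 on the deposited values (Rps4l), against 1.02%, and 1 with no filter on low values (Rpl27a), against 2.06%. The mean of all kept probe sets gave 3 (Rpl27a, Rps25 and Rpl37a, whose probe sets disagree), against 3.42%. Leaving out 1 array gave 0 to 3, against 1.31% to 6.83% of all genes. None remained without wild-type SpV array 1, 2 or 3, wild-type HVT array 1 or 2, or knockout HVT array 1 or 3. Without wild-type HVT array 3 or knockout SpV array 3 it was Rpl27a alone, without knockout HVT array 2 Rps25 alone, and without knockout SpV array 2 Rpl27a, Rps4l and Rpsa. Calls of all genes ranged from 122 to 628, with 348 as reported, and were 672 with the actin covariate and 95 on the deposited values. Where no member was called, the actin covariate gave 2 at rest (Rpl27a and Rps25), against 4.14% of all genes. It gave 1 for averaged ventilation (Rps25), against 5.41%. The deposited values gave 1 between ventilated genotypes (Rps4l), against 0.279%. In these comparisons leaving out an array gave 0, except without knockout SpV array 1. That fit gave 1 at rest, against 1.9%, 2 between ventilated genotypes, against 5.32%, and 2 for averaged ventilation, against 7.03%.

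The members' medians moved with the scaling. Under scaling alone they were -0.02 (ventilation in the knockout), 0.24 (genotype at rest), 0.22 (genotype under ventilation), -0.03 (interaction) and 0.24 (averaged genotype). Under equal medians they were -0.05, 0.23 and 0.15 for the first 3 of these, 0.01 for averaged ventilation and 0.20 for averaged genotype. On the deposited values they were 0.06 (ventilation in wild type), -0.30, -0.27, -0.65, -0.37 and -0.46, and Rps25 turned to -0.10. Plain _at probe sets, available for 20 members, gave 0.09, 0.24, 0.12, -0.16, 0.03 and 0.12 for ventilation in the knockout, genotype at rest and under ventilation, interaction, averaged ventilation and averaged genotype. The median at rest was 0.05 to 0.15 with 1 array left out. The cause was not tested.

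In the labels, same-numbered arrays share only a number. The mean correlations of their residuals were 0.09, 0.12 and 0.00, with single pairs from -0.17 to 0.39. With the replicate block, 3 members (Rpl27a, Rps25 and Rps4l) were called in the averaged genotype comparison, and no member in the others. Of all genes, 510 were called in that comparison with the block and 348 without it. Whether the numbers mark a shared batch or pairing was not tested. A filter on the quantile-normalized signal, added after seeing the data, left 46 members and the same 2 calls.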
